A study of Mus musculus with 127 samples.

Results

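The response of ST cells to Toll-like receptor ligands was set against what the same cell population did in culture without them. ST, short-term haematopoietic stem cells sorted from mouse bone marrow, were followed by bulk RNA sequencing (SMART-seq2, which copies whole polyadenylated transcripts from few cells) at 0, 2, 4 and 8 h. In 4 mice (young 1, young 2, young 3 and old 2) the culture medium held 100 ng/ml lipopolysaccharide (LPS, bound by Tlr4 with Cd14) and 1 ug/ml Pam3csk4 (a lipopeptide bound by Tlr2). In the other 2 mice (young 4 and old 4) it held neither. Both sets were cultured at 37 °C in the same medium, and the labels give no strain, sex or age in weeks. The members are 24 libraries, 1 per mouse and time, which sum 27 of the 41 deposited ST libraries and of 127 in the whole series. The 0 h libraries of young 1, young 2 and old 2 carry the ligand label, but all 0 h libraries were read as unexposed. The quantity compared is the change from 0 h, so that a gene that changes alike in culture with and without ligand gives no difference. The unblocked edgeR fit, used unless said otherwise, takes the change of each course's mean and treats libraries of the same mouse as independent. Pairing of times within a mouse enters only the fits with each mouse as a block and the own changes given per mouse. A difference is given as log2 of the change with ligand over the change without it, ± SE, with the adjusted p of edgeR's quasi-likelihood test (Benjamini-Hochberg over 14401 genes, threshold 0.05). Beside such a difference or a pair of levels, a single value in brackets is that adjusted p. Levels are counts per 1e6 (CPM), listed in the order young 1, young 2, young 3, old 2 with ligand and young 4, old 4 without. The 2 courses were run on different mice, and each ligand mouse has its own date in the column names, so mouse, date and course cannot be told apart.

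As background, Tlr2 and Tlr4 signal through Myd88 to the IKK kinases, which release NF-kB from its cytoplasmic inhibitors. NF-kB then induces its own inhibitors (Nfkbia, Tnfaip3), the nuclear I-kappa-B protein Nfkbiz, chemokines and surface molecules. Tlr4 can also lead to type I interferon. Haematopoietic stem and progenitor cells carry these receptors. Interferon in turn induces antiviral GTPases, Ly6 and Ifitm membrane proteins and antigen presentation.

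Many of the genes that passed showed 1 of 2 patterns. Nfkbia, Nfkbiz, Gadd45b, Cd69 and Adora2a, which belong to or follow NF-kB signalling and activation, had high levels with ligand and low ones without. Gbp3, Igtp, Ifitm2 and Ly6e, which interferon induces, were near or above their 0 h level at 8 h with ligand, except Igtp in young 1, and far below it without. Heat shock chaperones lay the other way, with 0 of the list passing the unblocked fit or the one with mice as blocks in all 72 libraries. With edgeR, 2 genes were higher and 0 lower at 2 h, 1 and 0 at 4 h, 12 and 1 at 8 h, and 7 and 0 over the mean of the 3 times (0.0139%, 0.00694%, 0.0903% and 0.0486% of genes tested), which makes 15 genes in all. Unadjusted p was under 0.05 for 441, 588, 878 and 559 genes. With each mouse as a block in the same 72 libraries, 3, 3, 50 and 24 passed (0.0208%, 0.0208%, 0.347% and 0.167%). In a blocked fit of the 24 ST libraries alone, 3, 14, 62 and 29 of 13110 passed (0.0229%, 0.107%, 0.473% and 0.221%). A p given as blocked is from the blocked fit of the 72 libraries. There the LT, ST and MPP libraries of a mouse share an offset, so ST has no mouse term of its own. On simulated counts the unblocked fit found 13% of planted log2 changes of 4 at 8 h and 0% of changes of 2, with 0 false calls, so a gene that did not pass may still differ. Those counts were drawn independently for each library from edgeR's own fitted dispersions, without mouse effects. They cannot show how many calls are false in these data.

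Before exposure several markers had different levels in the 2 sets, without passing the test, and the part of this in later differences was not tested. Between the 2 sets at 0 h, 0 of 14401 genes passed edgeR (0%; 490 at an unadjusted p under 0.05, 123 by DESeq2 and 317 by limma voom). Stem and progenitor markers were present, but Kit, the receptor of stem cell factor, was at 404, 666, 1448 and 764 CPM in the ligand mice and 156 and 292 in the others. Procr, a marker of stem cells, was at 32.3, 75.9, 170.3 and 107 against 4.04 and 5.59 (edgeR unadjusted p = 0.0061, adjusted p = 1). Ly6a, which encodes Sca-1, was at 125, 137, 173 and 121 against 138 and 129, and Slamf1 (CD150) had no count in 23 of the 24 libraries. Transcripts of neutrophil granule proteins (16 genes) summed to 2.30% to 8.82% of the counts in every library of 5 mice and to 0.0157% to 0.0958% in young 3, with 0 of the 16 genes at 0 in all libraries. The 14 monocyte and macrophage markers summed to 2482 to 12915 CPM without ligand and 111 to 11460.0 with it, again lowest in young 3. Erythroid markers summed to 195 to 2705 CPM over all libraries and megakaryocyte markers to 182 to 786. Markers of dendritic cells, lymphocytes (B, T and NK) and stroma each summed to at most 594 CPM in any library, and the fibroblast gene Dcn was the only marker at 0 in all of them. Totals ran from 1740265 to 10706984 counts (median 5289449) with ligand and from 1616723 to 2632662 (median 2169141) without. Detected genes numbered 7788 to 12736 and 9250 to 11347, and the 4 h and 8 h libraries of young 1 held under 8000. In bulk RNA, fewer cells of a type and less RNA per cell cannot be told apart.

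Nfkbia, whose protein keeps NF-kB out of the nucleus, was the only gene to pass at 2, 4 and 8 h. With ligand it was at 172, 78.7, 112 and 113 CPM at 0 h and at 1669.9, 2025, 1729.5 and 1672 at 2 h. At 4 h the values were 1505, 1864, 1289 and 1711, and at 8 h 1233, 1773, 1061 and 1555. Without ligand it was at 184 and 154 CPM at 0 h, 343 and 142 at 2 h, 149 and 319 at 4 h and 229 and 105 at 8 h. Every ligand library from 2 h on lay above every library without ligand. The difference was 3.41 ± 0.63 at 2 h (edgeR adjusted p = 0.010), 3.25 ± 0.63 at 4 h (0.049) and 3.51 ± 0.63 at 8 h (0.0031). The call of Nfkbia was lost at 2 h without young 2, young 3, old 2 or old 4 (adjusted p = 0.077 to 0.37), and at 4 h without young 2, young 3, old 2 or young 4 (adjusted p = 0.17 to 1), and at 8 h without young 2 or old 2 (adjusted p = 0.059 to 0.10). Over the mean of the 3 times (3.39 ± 0.49, 6.8e-05) the call held without any 1 of the 6 mice. The promoter of Nfkbia is shown for its NF-kB motif. The 250 bases before its start hold 1 match, in capitals, to the NF-kB motif GGGNNNTTCC on either strand, 20 to 29 bases before the start. It lies at chr12:55492648-55492897, minus strand of GRCm38.p6 (RefSeq; the counts were made on mm9, so these coordinates belong to the promoter table only).
Nfkbia: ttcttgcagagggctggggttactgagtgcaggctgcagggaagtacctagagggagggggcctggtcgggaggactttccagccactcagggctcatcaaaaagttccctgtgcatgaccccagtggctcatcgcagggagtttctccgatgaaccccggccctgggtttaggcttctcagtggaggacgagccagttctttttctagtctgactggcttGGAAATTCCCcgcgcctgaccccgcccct
Of 27025 promoters of this length 4.60% hold that motif, as do 3 of the 10 genes of the 15 that matched the table (2410006H16Rik, Nfkbia and Serpina3g). No factor binding was measured.

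Gadd45b, a stress protein that NF-kB induces, differed most at 2 h. With ligand it went from 7.24, 10.9, 7.55 and 10.0 CPM to 217, 344, 352 and 364, and without it from 22.2 and 23.3 to 18.0 and 10.3 (5.88 ± 0.93, edgeR adjusted p = 6.9e-04). At 8 h the ligand mice had 173, 208, 90.2 and 110.4 CPM and the others 86.6 and 60.4. There the lowest ligand mouse was close to the no-ligand mice, and the difference of 2.27 ± 0.86 did not pass (0.66). Over the mean of the 3 times it did (3.87 ± 0.68, 0.0019). Nfkbiz, a nuclear I-kappa-B protein, was at 8.09, 7.57, 9.74 and 14.5 CPM at 0 h and 920.1, 1075, 885 and 788 at 2 h with ligand. Without ligand young 4 went from 34.3 to 135 and old 4 from 0 counts to 50.1. At 8 h it was at 408, 236, 276 and 331 with ligand and 12.99 and 13.03 without, groups that did not overlap. The difference passed at 8 h (5.37 ± 1.01, edgeR adjusted p = 0.0058) and over the mean (4.42 ± 0.76, 0.0019). It rests on the 0 h level of young 4: without that mouse only old 4 is left, which had no count at 0 h, and the fitted value turned to -3.93 at 8 h and -4.67 over the mean (adjusted p = 1). Nfkbiz also lost its calls in ST alone with the block (0.092 and 0.12), in ST alone without it (0.11 and 0.078) and by limma voom, whose values were smaller (2.37 at 8 h and 1.55 over the mean, adjusted p = 0.71 and 0.78). The call of Gadd45b was lost at 2 h without old 4 (adjusted p = 0.18), and over the mean without old 2 or old 4 (adjusted p = 0.058 to 0.065). The call of Nfkbiz was lost at 8 h without young 2 or old 2 (adjusted p = 0.059 to 0.10), and over the mean without young 2 (adjusted p = 0.096).

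The rest of the pathway was described by how many genes had own changes, on log2(CPM + 1), that lay in all 4 ligand mice above, or below, both no-ligand mice. Of all genes tested, 5.74% were above and 8.76% below at 2 h, 7.89% and 8.01% at 4 h, 9.05% and 8.06% at 8 h, and 8.11% and 9.47% over the mean. Of 7 I-kappa-B genes 3, 3 and 5 were above at 2, 4 and 8 h and 0 below (median difference in own change 3.45 at 8 h, against 0.00 over all genes). Nfkbie, another cytoplasmic inhibitor, was at 93.9, 159, 202 and 140.0 CPM at 8 h with ligand and at 0 counts without. That makes its pooled level at least 154-fold higher. Every such bound sets the counts pooled over the 4 ligand libraries against 3 counts summed over the pair without ligand. The bound is for the pooled level, and a single ligand mouse can lie below it. Nfkbie did not pass (0.057), but did with the blocks (0.024 and 0.0035 in ST alone). Of 14 ubiquitin regulators, which tune signalling upstream of NF-kB, 7, 5 and 8 were above and 0, 1 and 1 below, with 0 passing unblocked. Among them the adaptor Traf1 reached 467, 792, 1450.0 and 935 CPM at 2 h against 35.6 and 23.9 (5.39 ± 1.85, adjusted p = 1). Tnip1, a partner of A20, was at 241, 318, 302 and 326 at 8 h against 37.1 and 13.6 (3.00 ± 0.81; adjusted p = 0.21, blocked 0.0048). Tnfaip3, which encodes A20, overlapped at 2 h: young 4 went from 5.25 to 185 CPM without ligand, against 1070.2, 567, 295 and 373 with it. Of 5 NF-kB subunit genes 1, 3 and 1 were above and 0, 1 and 0 below. The receptors were read at low levels, Tlr2 at 115, 43.5, 32.6 and 0.106 CPM at 0 h in the ligand mice and 45.6 and 113 in the others, and Tlr4 at 34.2, 6.91, 21.2 and 1.81 against 51.7 and 6.52. Of 24 receptor and adaptor genes 4, 4 and 5 were above and 3, 0 and 1 below at the 3 times.

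**Figure D1:**
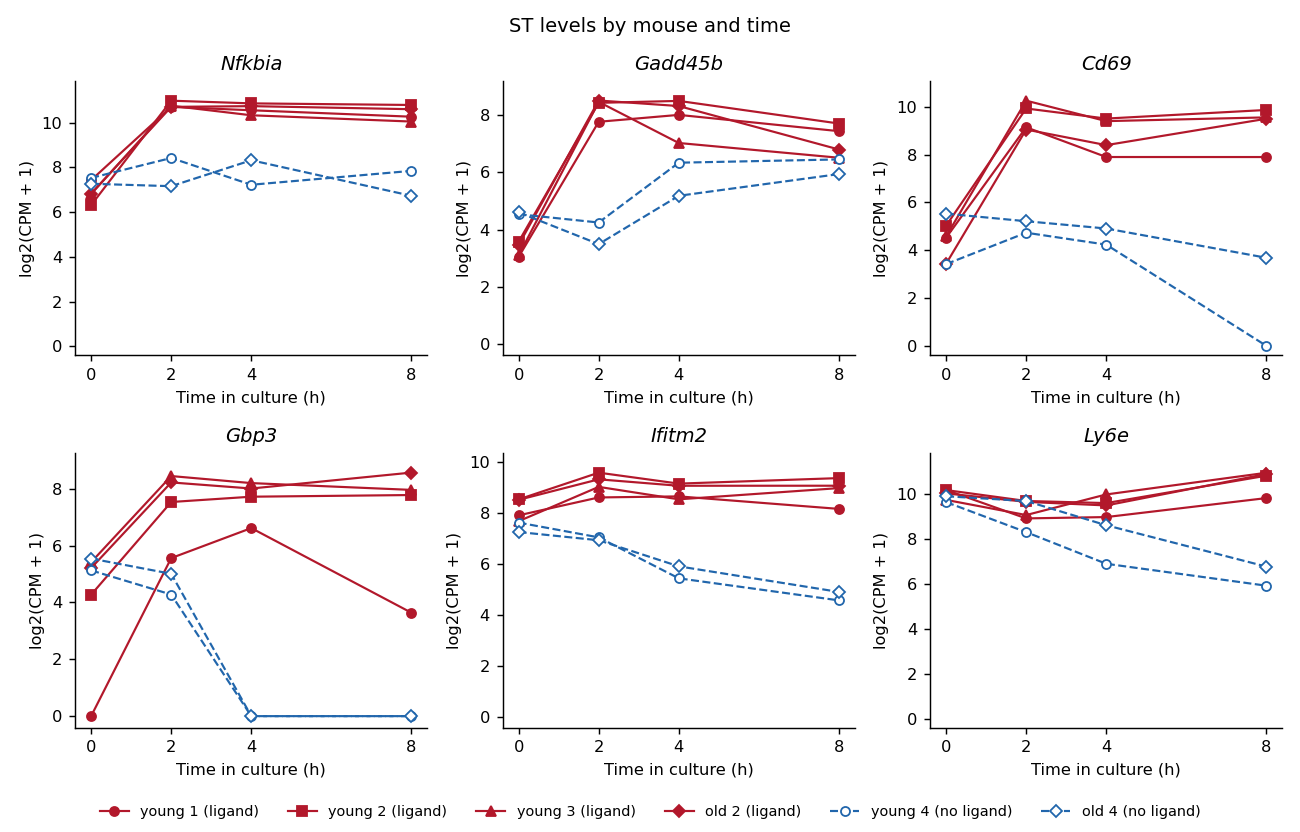
Level of 6 genes in each ST library, as log2(CPM + 1), against time in culture in hours; red filled points and solid lines are the 4 ligand mice, blue open points and dashed lines the 2 mice without ligand. Nfkbia, Gadd45b and Cd69 part from the no-ligand mice at 2 h. Gbp3, Ifitm2 and Ly6e part as the no-ligand levels go down at 4 and 8 h, and Gbp3 and Ifitm2 also rise with ligand.

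Among surface molecules of activated cells 1 passed. Cd69, an early activation receptor, was at 22.0, 31.6, 22.9 and 9.80 CPM at 0 h, 563, 973, 1221 and 528 at 2 h, 238, 726, 674 and 336 at 4 h and 237, 932, 752 and 722 at 8 h with ligand. Without ligand it was at 9.70 and 45.1 CPM at 0 h, 25.6 and 36.1 at 2 h, 17.8 and 29.0 at 4 h and 0 and 11.8 at 8 h, below every ligand library from 2 h on. The difference passed at 8 h (7.08 ± 1.55, edgeR adjusted p = 0.035) and over the mean (5.62 ± 1.11, 0.012). Cd83, a protein of activated antigen-presenting cells, had 1004, 2827, 4359.8 and 1253 CPM at 2 h against 64.0 and 30.4, with no overlap, and did not pass (6.76 ± 2.29, adjusted p = 1). Cd40, a receptor of the TNF family, was at 150.1, 222, 5.17 and 174 at 8 h against 1.24 and 0 (adjusted p = 0.47). Icam1, an adhesion molecule, was at 517, 416, 457 and 573 at 8 h against 2.47 and 46.8 (2.60 ± 1.01, 0.67). Of 16 such genes 7, 5 and 5 were above and 1, 2 and 1 below at 2, 4 and 8 h. The shares over all genes were 5.74%, 7.89% and 9.05% above and 8.76%, 8.01% and 8.06% below. Adora2a, an adenosine receptor, was at 59.7, 30.2, 36.3 and 51.7, then 187, 60.2, 91.8 and 52.7, then 72.3, 82.0, 77.0 and 93.3 CPM with ligand at 2, 4 and 8 h. It had 0 counts in all 6 no-ligand libraries from 2 h on, so its level was at least 76.8-fold, 130.1-fold and 90.4-fold higher with ligand. It passed over the mean (edgeR adjusted p = 0.022), while its fitted log2 value depends on the counts of 0 and is no bound. Serpina3g, a serine protease inhibitor, was at 135, 232, 383 and 234 CPM at 0 h and 321, 641, 921 and 886 at 8 h with ligand, and went from 32.3 and 158 to 0 counts without (level at 8 h at least 718-fold higher, adjusted p = 0.026). Socs3, a feedback inhibitor of cytokine receptors, was at 316, 259, 30.5 and 96.3 at 8 h against 0 counts (at least 224-fold on the pooled counts, 0.025). Young 3 and old 2 had the lower values at 4 and 8 h. The call of Cd69 was lost at 8 h without young 2, young 3, old 2, young 4 or old 4 (adjusted p = 0.11 to 0.47), and over the mean without young 2, young 3, old 2, young 4 or old 4 (adjusted p = 0.071 to 0.16). The Adora2a call was lost over the mean without young 2, young 3, old 2, young 4 or old 4 (adjusted p = 0.076 to 0.26). The Serpina3g call was lost at 8 h without young 2, young 3, old 2 or old 4 (adjusted p = 0.066 to 0.20). The Socs3 call was lost at 8 h without young 2, old 2, young 4 or old 4 (adjusted p = 0.059 to 0.20).

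Cytokines and chemokines split by whether culture alone moved them. Ltb, which encodes lymphotoxin beta, was at 82.8, 219, 283 and 225 CPM at 0 h and 189, 409.6, 659 and 452 at 8 h with ligand, and at 95.7 and 72.6 at 0 h and 17.9 and 13.6 at 8 h without. It did not pass unblocked (8 h 3.45 ± 1.06, edgeR adjusted p = 0.45) but did at 2, 4 and 8 h in ST alone with the block (0.015, 0.0025 and 0.0021), and at 4 and 8 h in 72 libraries (blocked 0.093, 0.014 and 0.010 at the 3 times). Ccl5, a chemokine for T cells and monocytes, reached 931, 3524, 857 and 3092 at 8 h against 26.6 and 67.0 (5.15 ± 1.27; adjusted p = 0.10, blocked 0.0072). Ccl9, a chemokine of myeloid cells, was at 176, 536, 506 and 562 against 30.3 and 80.6 (4.41 ± 1.42, adjusted p = 0.47). Cxcl2, which draws neutrophils, was at 399.7, 573, 4.60 and 235 against 9.28 and 0 at 8 h (0.36), with young 3 between the 2 no-ligand mice. Tnf was at 745, 421, 56.7 and 333 CPM at 2 h and 1016, 1405, 5.17 and 367 at 8 h with ligand, and stayed at 13.03 to 58.8 without (7.20 ± 2.39 at 8 h; 0.51, blocked 0.066, in ST alone with the block 0.024). After 0 h young 3 had the lowest Tnf of the ligand mice, below both no-ligand mice at 4 and 8 h, though from 0 counts at 0 h its own change still lay above theirs. Il1b, which encodes interleukin 1 beta, was at 1618, 1183, 286 and 911 at 4 h against 19.2 and 7.97, without passing (adjusted p = 1). Some genes known as ligand targets were also high at 2 h without it. Cd14, the LPS co-receptor, was at 1512, 720.2, 32.9 and 597 CPM at 2 h with ligand and at 541 and 504 without, from 8.08 and 0 at 0 h (0.35 ± 1.99, adjusted p = 1). Ccl3, a monocyte chemokine, was at 562, 768, 150.2 and 396 with and 239 and 62.3 without, from 4.44 and 1.86 (0.30 ± 1.60, 1). Young 3 had the lowest Cd14 and Ccl3 of the ligand mice at 2 h. Sod2, a mitochondrial superoxide dismutase, likewise reached 1299, 1651, 44.8 and 579 at 8 h, lowest in young 3, against 111 and 84.1 (0.82). Young 3 was also the mouse with few granule transcripts, whose part in these values was not tested. Of 17 chemokines tested (of 19) 7, 5 and 6 were above at 2, 4 and 8 h and 2, 1 and 0 below. Of 26 cytokines and receptors 5, 7 and 7 were above and 1, 0 and 1 below, and 10 and 0 over the mean. Over all genes 5.74%, 7.89% and 9.05% were above and 8.76%, 8.01% and 8.06% below at those times. Over the mean the shares were 8.11% and 9.47%.

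Interferon-stimulated genes parted from 4 h on, with the larger movement in the mice without ligand. Gbp3, a guanylate-binding GTPase of the antiviral response, was at 0, 18.3, 41.7 and 36.0 CPM at 0 h and 11.4, 218, 248 and 378 at 8 h with ligand. Without ligand it went from 33.9 and 45.6 at 0 h to 18.4 and 31.1 at 2 h and to 0 counts in both mice at 4 and 8 h. Its level pooled over the ligand mice was at least 267-fold higher at 4 h and 231-fold at 8 h, where young 1 was far below the others. Gbp3 passed at 8 h (edgeR adjusted p = 0.026) and over the mean (0.0019). Igtp, a GTPase of the same response, was below its 0 h level in all 6 mice at 2 h. By 8 h it was back at 25.6, 69.5, 86.8 and 237 CPM with ligand, lowest in young 1, and at 0 counts without (at least 119.5-fold, adjusted p = 0.022). Rsad2, an antiviral enzyme, was at 5.82, 572, 137 and 479 against 4.33 and 0 at 8 h and did not pass (0.40). Iigp1, another interferon-inducible GTPase, was at 60.3, 141, 59.2 and 224 against 0 and 0 at 8 h (0.70). Of the 39 genes of the list 3 were above and 5 below at 2 h, 15 and 2 at 4 h, and 21 and 0 at 8 h. At 2 h the share above was near that of all genes (5.74%). Over all genes 7.89% and 9.05% were above and 8.01% and 8.06% below at 4 and 8 h. The list's median own change at 8 h was -0.31, 0.34, -0.05 and 1.45 with ligand and -2.74 and -3.30 without, so the ligand mice stayed near 0 h except old 2, which was higher. The median difference was 0.00, 2.16 and 3.18 at 2, 4 and 8 h, against -0.15, -0.02 and 0.00 over all genes. The call of Gbp3 was lost at 8 h without young 2, young 3, old 2, young 4 or old 4 (adjusted p = 0.10 to 0.47), and over the mean without young 2, young 3, old 2 or old 4 (adjusted p = 0.055 to 0.099). The Igtp call was lost at 8 h without young 2, young 3, old 2, young 4 or old 4 (adjusted p = 0.089 to 0.37).

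The promoters of 3 genes that passed at 8 h are shown for their interferon and NF-kB motifs. Capitals mark matches on either strand to TTTCNNTTTC (the core of the interferon-stimulated response element) in Gbp3, where 2 matches overlap, and in Ifitm2, and to the NF-kB motif and TTCNNNGAA (the STAT element) in Serpina3g.
Gbp3: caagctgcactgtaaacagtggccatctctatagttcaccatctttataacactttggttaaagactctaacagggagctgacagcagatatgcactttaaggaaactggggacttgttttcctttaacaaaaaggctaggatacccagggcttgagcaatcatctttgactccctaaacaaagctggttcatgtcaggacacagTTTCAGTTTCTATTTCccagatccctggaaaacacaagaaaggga
Ifitm2: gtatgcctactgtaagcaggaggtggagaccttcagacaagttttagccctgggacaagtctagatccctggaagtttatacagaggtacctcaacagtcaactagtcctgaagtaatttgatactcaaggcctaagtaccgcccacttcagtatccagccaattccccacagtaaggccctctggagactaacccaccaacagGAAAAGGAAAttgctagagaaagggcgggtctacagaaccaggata
Serpina3g: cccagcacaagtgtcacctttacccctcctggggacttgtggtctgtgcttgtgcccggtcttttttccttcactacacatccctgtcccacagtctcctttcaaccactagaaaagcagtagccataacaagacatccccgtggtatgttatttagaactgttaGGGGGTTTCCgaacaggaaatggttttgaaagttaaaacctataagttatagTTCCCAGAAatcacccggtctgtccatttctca
They lie at chr3:142559794-142560043, plus strand, at chr7:140955962-140956211, minus strand and at chr12:104235897-104236146, plus strand of GRCm38.p6 (RefSeq). The interferon motif is in 3.04% of 27025 promoters and in 4 of the 10 matched genes (Gbp3, Ifitm2, Igtp and Ndufa9). The STAT motif is in 7.18% and in 3 of 10 (Igtp, Serpina3g and Socs3). A match is a run of letters, not a measured site.

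Ly6 and Ifitm membrane proteins, many of which interferon induces, parted in the same way. Ifitm2 was at 239, 369, 204 and 365 CPM at 0 h, 401, 567, 370.1 and 535 at 4 h and 285, 659, 502 and 536 at 8 h with ligand. Without ligand it was at 196 and 152 at 0 h, 42.5 and 59.2 at 4 h and 22.9 and 29.0 at 8 h, a fall of its own (-2.54 ± 0.51, edgeR adjusted p = 0.011), while the change with ligand did not pass (0.92 ± 0.34, 0.21). The difference was 3.45 ± 0.62 at 8 h (0.0031) and 2.45 ± 0.47 over the mean (0.0085). Ly6e was at 1159, 1155, 853 and 1042 CPM at 0 h, 502, 773, 1009 and 719 at 4 h and 902, 1802, 1973 and 1899 at 8 h with ligand. Without ligand it fell from 797 and 955 through 118 and 389 to 59.4 and 108 (-3.18 ± 0.76, 0.042). The difference of 3.98 ± 0.90 passed (0.049; blocked 2.3e-04). Ly6a (Sca-1), part of the usual sort for these cells, was at 120.1, 400.3, 698 and 388 at 8 h against 27.8 and 21.3 and missed the threshold without the block (3.92 ± 0.92; 0.061, blocked 0.0063). Ifitm3, an antiviral membrane protein, was at 242, 374, 193 and 374 against 48.9 and 45.0 (1.49 ± 0.62, adjusted p = 0.72). Of the 8 genes 1, 6 and 7 were above at 2, 4 and 8 h and 0 below. Among all genes 5.74%, 7.89% and 9.05% were above and 8.76%, 8.01% and 8.06% below. Of 16 genes of MHC class I and the immunoproteasome 9 were above at 8 h and 2 below, with 0 passing. Psme2, a proteasome activator, was at 244, 314, 125 and 279 against 29.1 and 69.9 CPM (1.93 ± 0.65, 0.53). Of 16 neutrophil granule genes 1 was above and 4 below at 2 h, 2 and 2 at 4 h, and 9 and 0 at 8 h, with 0 passing. The median fitted difference of these genes at 8 h was 0.59, but -0.14 without the libraries under 8000 genes. Their share of the counts went without ligand from 8.82% and 3.87% at 0 h to 5.26% and 2.30% at 8 h, and with ligand from 7.58%, 4.61%, 0.0575% and 2.98% to 8.00%, 4.47%, 0.0958% and 3.71%. In young 3 the Ifitm2 and Ly6e levels at 8 h were within the range of the other ligand mice or above it. No mouse without ligand had as few granule transcripts as young 3, and their part in the 8 h differences was not tested. Over all genes 0.236% passed from 0 to 8 h without ligand and 0.93% with it. The call of Ifitm2 was lost at 8 h without young 4 or old 4 (adjusted p = 0.070 to 0.31), and over the mean without young 2, young 3, young 4 or old 4 (adjusted p = 0.074 to 0.38). The Ly6e call was lost at 8 h without young 2, young 3, old 2, young 4 or old 4 (adjusted p = 0.051 to 0.26).

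**Figure D2:**
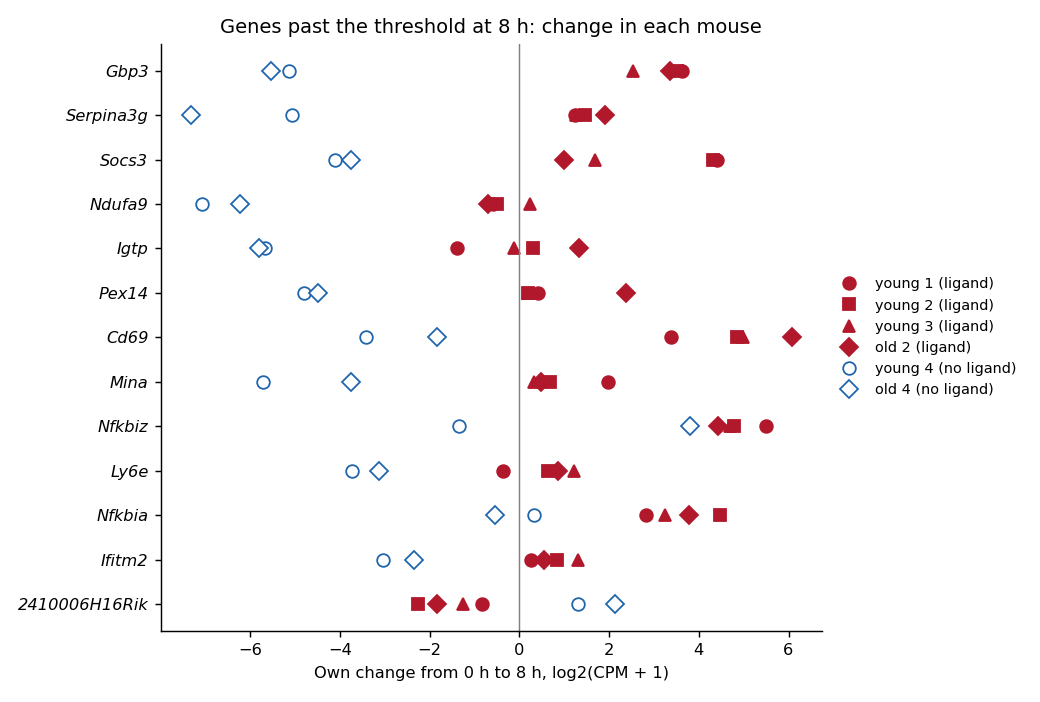
Change from own 0 h to 8 h, on log2(CPM + 1), of the 13 genes past the threshold at 8 h, 1 point per mouse (red filled with ligand, blue open without). In 12 genes all red points lie right of both blue points, and in 2410006H16Rik all lie left; for Nfkbiz the gap to old 4 is narrow.

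The other genes past the threshold at 8 h were at or near 0 without ligand or, in 1 case, lower with it. Ndufa9, a subunit of respiratory complex I, was at 69.4, 98.3, 76.0 and 101 CPM at 0 h and 45.9, 69.7, 89.1 and 61.9 at 8 h with ligand. Without ligand it was at 134 and 74.0 at 0 h, 60.7 and 53.5 at 4 h and 0 counts at 8 h (level at least 69.0-fold higher with ligand, edgeR adjusted p = 6.9e-06), a call that held without any 1 of the 6 mice. Pex14, a peroxisome import protein, was at 34.7, 47.8, 32.2 and 59.3 against 0 counts (at least 50.6-fold, 0.049). Mina, a histidine hydroxylase, was at 179, 131, 101 and 149.6 against 0 and 4.15 (5.64 ± 1.02, 0.0031). The 8 h libraries of these 2 mice were among the shallower ones, and with every library thinned to 1600000 counts, an alternative chosen after seeing the data, 16 genes passed at 8 h. The 1 gene lower with ligand, 2410006H16Rik, was at 67.0, 192, 114 and 192 CPM at 0 h and 37.0, 39.1, 47.7 and 53.3 at 8 h with ligand, and at 54.1 and 63.8 at 0 h and 136 and 281 at 8 h without (-3.54 ± 0.75, 0.026). In ST alone with the block the calls of Mina, Pex14 and 2410006H16Rik were lost (adjusted p = 0.087, 0.23 and 0.056). The Pex14 call was lost at 8 h without young 2, young 3, old 2, young 4 or old 4 (adjusted p = 0.20 to 0.85). The Mina call was lost at 8 h without young 4 (adjusted p = 0.16). The 2410006H16Rik call was lost at 8 h without young 2, young 3, old 2, young 4 or old 4 (adjusted p = 0.089 to 0.89).

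Many heat shock chaperones, which refold proteins after stress, had higher own changes without ligand at 2, 4 and 8 h. Hspa8, the constitutive Hsp70, was at 2937, 3204, 3198 and 3109 CPM at 0 h with ligand, 5109.9, 6422, 7856 and 6543 at 2 h, 2175, 3529, 3518 and 3155 at 4 h and 2307, 3392, 2549.6 and 3264 at 8 h. Without ligand it was at 3051 and 4049 at 0 h, 12844 and 10218 at 2 h, 10462 and 11565 at 4 h and 9866 and 9806 at 8 h. All mice were high at 2 h, but only the no-ligand mice still were at 4 and 8 h. The difference was -1.69 ± 0.53 at 4 h (edgeR adjusted p = 1, blocked 0.22, in ST alone with the block 0.0020) and -1.64 ± 0.53 at 8 h (0.49, blocked 0.088, in ST alone 7.2e-04). Hsp90ab1 and Hsph1 were chosen after their values were seen. Hsp90ab1, an Hsp90, was at 1118, 1513, 1783 and 1546 at 4 h against 4267 and 4675 (-1.51 ± 0.52; adjusted p = 1, blocked 0.12, in ST alone 0.0020), and Hsph1, an Hsp110, at 30.6, 45.5, 84.5 and 90.4 against 1111 and 913 (1, blocked 0.59, in ST alone 0.011). Hsp90aa1, the inducible Hsp90, was at 323, 477, 252 and 407 at 4 h with ligand and 1106 and 1048 without (-1.97 ± 0.50; 0.51, blocked 0.061, in ST alone 0.065). Hspa1a, an inducible Hsp70, reached 840.4, 257, 1656 and 391 at 2 h with ligand and 2127 and 659 without, groups that overlap, and at 8 h was at 0, 39.5, 14.9 and 8.15 against 1039 and 105 (0.76). Of 16 heat shock genes 0 passed in either direction at any time, unblocked or with the block in 72 libraries, while 4, 2 and 3 were lower with ligand at 4 h, at 8 h and over the mean in ST alone with the block. Without overlap, 8, 12 and 7 were below at 2, 4 and 8 h and 0 above, with a median difference of -0.93, -2.02 and -1.41. Over all genes 8.76%, 8.01% and 8.06% were below and 5.74%, 7.89% and 9.05% above at those times. The 20 genes of the integrated stress response, driven by Atf4, had 3 above and 1 below at 2 h, 0 and 6 at 4 h, and 1 and 6 at 8 h, with 0 passing. Trib3, a pseudokinase induced by that response, was at 0, 0.927, 20.7 and 0 at 8 h with ligand and 140.4 and 193 without (adjusted p = 0.51). Ddit3, which encodes CHOP, was at 18.7, 41.7, 55.2 and 20.5 at 8 h with ligand and 259 and 172 without (-2.25 ± 1.17, 0.84).

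**Figure D3:**
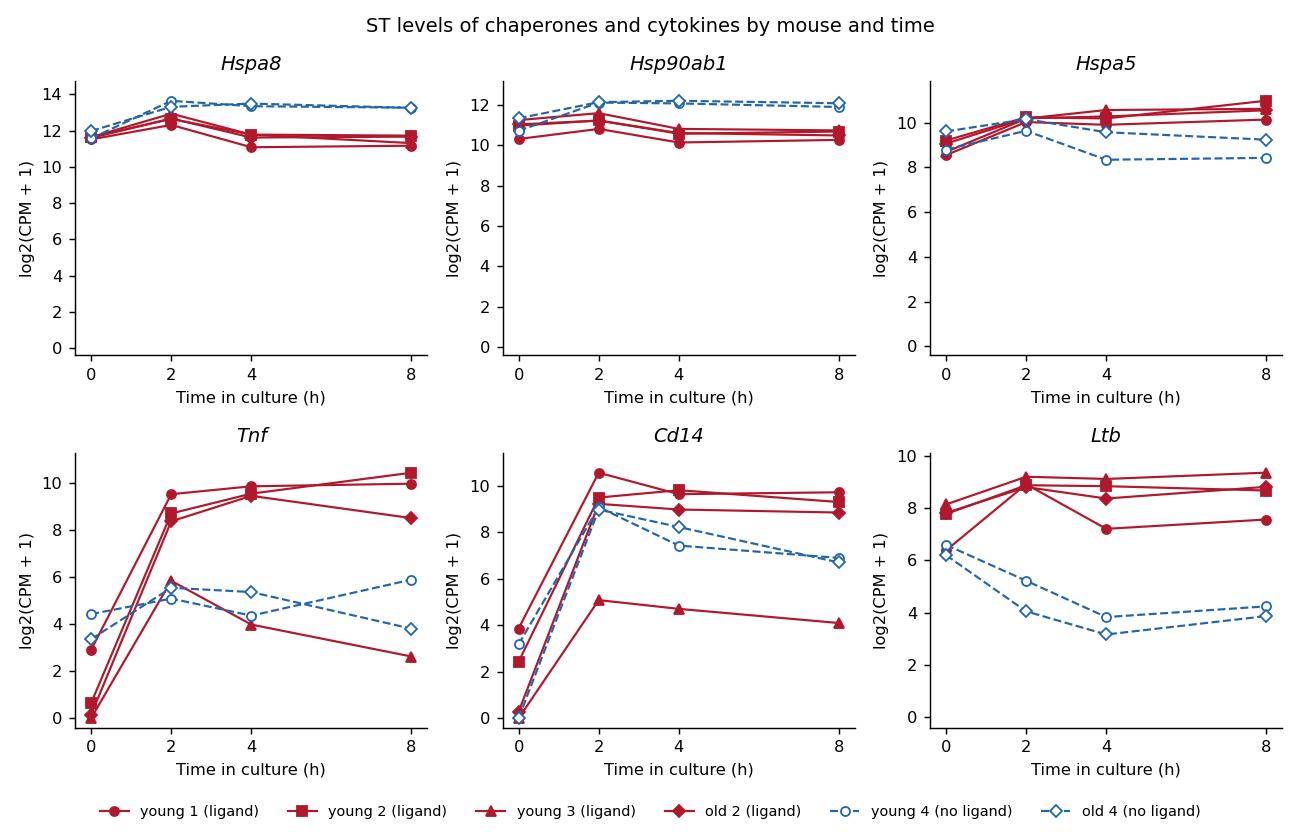
Level of 3 chaperones and 3 cytokine or receptor genes in each ST library, as log2(CPM + 1), against time in hours (red filled with ligand, blue open and dashed without). Hspa8 and Hsp90ab1 stay high in the blue lines, Hspa5 and Ltb in the red ones, and Tnf and Cd14 are lowest in young 3 (triangles) among the ligand mice.

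Chaperones of the endoplasmic reticulum, which fold secreted proteins, went opposite to the heat shock genes. Hspa5 (BiP) was at 375, 589, 414 and 535 CPM at 0 h and 1128, 2024, 1573 and 1505 at 8 h with ligand, and at 446 and 781 at 0 h and 344 and 604 at 8 h without (2.02 ± 0.54; edgeR adjusted p = 0.18, blocked 0.0040). Hsp90b1 (GRP94) was at 669, 869, 820.0 and 559 against 93.4 and 369.7 at 8 h (2.60 ± 0.64; 0.11, blocked 0.0035). Pdia6, a disulfide isomerase, was at 457, 659, 732 and 511 against 90.9 and 133 (2.80 ± 1.09, 0.67). Of 19 such genes 2, 2 and 8 were above and 2, 0 and 0 below at 2, 4 and 8 h (median 1.33 at 8 h), so the list parted late. Cholesterol synthesis genes parted most at 4 h. Of 18, 1, 10 and 1 were above and 3, 0 and 0 below at 2, 4 and 8 h, with a median of 2.67 at 4 h and 0 passing. Fdps, which makes farnesyl pyrophosphate, was at 271, 359, 338 and 589.9 CPM at 4 h against 89.5 and 79.1 (2.90 ± 0.75, 0.52), and Hmgcs1, an early step of the pathway, at 403, 631, 474 and 814 against 83.1 and 44.4 (3.06 ± 0.94, 1). Nadk, the kinase that makes NADP, was at 1337, 1171, 1139 and 751 at 8 h against 260.4 and 109.6 (2.82 ± 0.74; 0.16, blocked 8.6e-05). The 76 genes of cytosolic ribosomal proteins, a group formed after the values were seen, were below in 15, 50 and 71 cases and above in 1, 1 and 0 (median -0.78 at 8 h). Of all genes tested, 5.74%, 7.89% and 9.05% were above and 8.76%, 8.01% and 8.06% below at 2, 4 and 8 h. Rpl32, likewise chosen after its values were seen, was at 773, 1896, 1175 and 1932 CPM at 0 h and 312, 454, 572 and 667 at 8 h with ligand, and at 711 and 997 at 0 h and 690.3 and 1163 at 8 h without (-1.69 ± 0.67; 0.69, blocked 0.0075). The medians of the heat shock and ribosomal protein lists stayed negative, and those of the interferon-stimulated, Ly6 and Ifitm and endoplasmic reticulum lists positive, at 8 h with DESeq2's size factors, after thinning, and without young 1, young 3 or the libraries under 8000 genes.

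**Figure D4:**
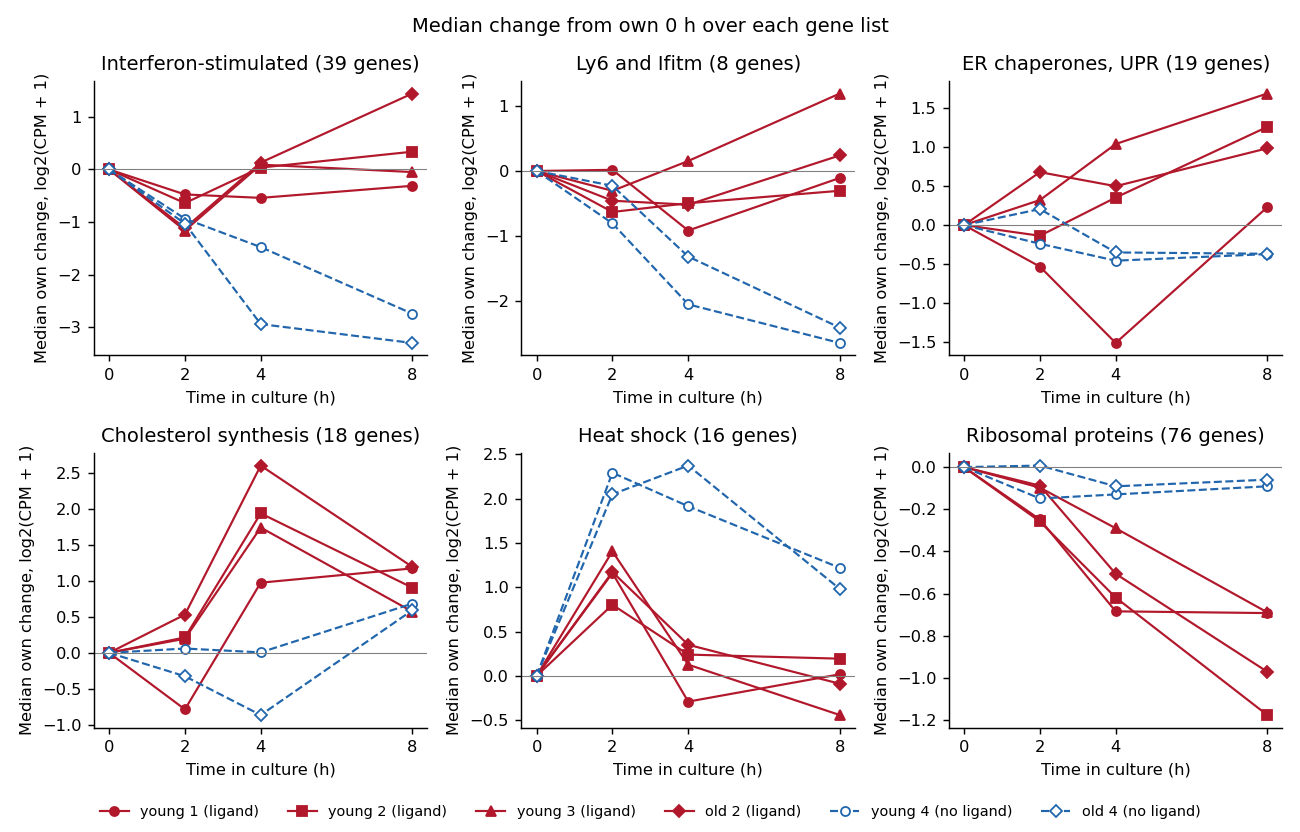
Median over each gene list of the change from own 0 h, on log2(CPM + 1), against time in hours, 1 line per mouse (red filled with ligand, blue open and dashed without). At 8 h the interferon-stimulated and Ly6 and Ifitm medians of both no-ligand mice lie below those of the ligand mice, and the heat shock and ribosomal protein medians above them.

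The lists of immediate early, cell cycle, ribosome biogenesis and stem cell identity genes held 0 genes past the threshold. Of 21 immediate early genes (of 22) 4 were above at 2 h and 0 below. Junb, an AP-1 subunit, was at 596, 366, 304 and 589.5 CPM at 8 h against 101 and 93.0 (1.84 ± 0.60, edgeR adjusted p = 0.49). Myc, a driver of growth, went from 233, 434, 400.3 and 505 to 5.30, 5.91, 15.2 and 25.2 CPM at 4 h with ligand and from 183 and 264 to 52.1 and 51.8 without (-2.87 ± 1.34, 1). Cdkn1a, the cell cycle inhibitor p21, reached 222, 267, 244 and 330.4 at 2 h with ligand and 136 and 138 without (1.17 ± 1.05, 1). Of 30 cell cycle genes 5 were above and 0 below at 8 h, of 27 ribosome biogenesis genes 2 and 4, and of 27 stem cell identity genes 5 and 4. Over all genes 9.05% were above and 8.06% below at that time. Procr was at 115, 239, 201 and 139.8 CPM at 4 h with ligand and 85.4 and 128 without. Its levels were closer at 4 h than at 0 h, which gave a negative difference (-3.64 ± 1.74, 1). Ctla2a, a cysteine protease inhibitor chosen after its values were seen, also started lower without ligand. It went from 89.9, 286, 391 and 364 to 329.8, 609.8, 985 and 1079.6 CPM with ligand and from 16.2 and 43.3 to 339.6 and 861 without (-2.97 ± 0.92; 0.45, blocked 0.0012). Stat3, Klf5 and Ikzf1 are transcription factors that the published study names as regulators, and 0 of the 3 passed. Stat3 was at 248, 243, 519 and 318 CPM at 4 h with ligand and 637 and 585 without (-1.06 ± 0.69, 1), Ikzf1 at 68.0, 198, 209.6 and 272 against 225 and 206 (1), and Klf5 at 0, 0, 0 and 8.72 against 23.3 and 15.4 (1). At 8 h the counts above and below in other lists were 4 and 1 of 18 SOCS and JAK-STAT genes (Socs3 passed) and 2 and 0 of 18 Bcl2-family and apoptosis genes. They were 5 and 2 of 20 redox genes, 2 and 2 of 24 glycolysis genes, and 1 and 2 of 15 MAP kinase phosphatases and Gadd45 genes. Of these, Gadd45b passed at 2 h and over the mean. MHC class II had 3 and 0 of 7 (median difference 2.29), lymphoid priming 4 and 0 of 14, and myeloid regulators 2 and 0 of 11. Marker lists had 4 and 0 of 14 (monocyte and macrophage), 4 and 0 of 14 (erythroid), 3 and 0 of 9 (dendritic) and 3 and 0 of 11 (B cell). Messenger RNA decay had 0 and 2 of 8. From MHC class II on, 0 genes passed unblocked. Beside the shares of 9.05% and 8.06% over all genes, counts this small are not read as a result about the members.

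**Figure D5:**
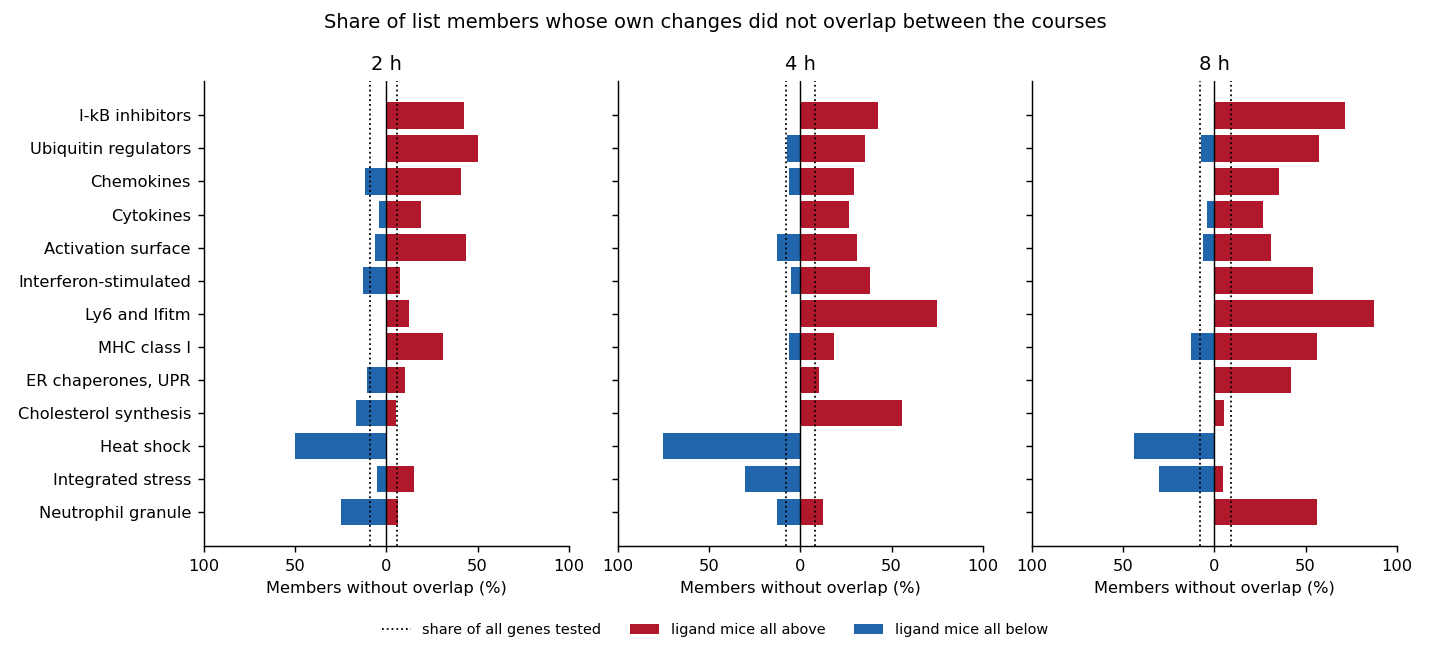
Percent of the tested members of 13 gene lists whose own changes did not overlap between the courses, at 2, 4 and 8 h; red bars to the right count genes with all 4 ligand mice above both others, blue bars to the left those with all below. Dotted lines mark the same shares over all genes tested, between 5.74% and 9.05%.

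The same differences were set beside those in LT (long-term stem cells) and MPP (multipotent progenitors) of the same mice. Over the mean of the 3 times, 0 of 14401 genes differed between ST and the average of LT and MPP by edgeR (0%; 113 at an unadjusted p under 0.05, 64 by DESeq2 and 2 by limma voom), so nothing above can be called particular to ST. Nfkbia differed by 3.39 ± 0.49 in ST, 2.20 ± 0.49 in LT (adjusted p = 0.079) and 3.33 ± 0.49 in MPP (1.1e-04). Nfkbiz differed by 4.14 ± 0.75 in LT (0.014) and 3.41 ± 0.76 in MPP (0.043). Ifitm2 differed by 2.45 ± 0.47 in ST, 2.03 ± 0.47 in LT (0.11) and 2.07 ± 0.47 in MPP (0.058), sizes within 1 SE of each other. Adora2a had 1.58 ± 1.58 in LT and 1.94 ± 1.57 in MPP, and its difference between ST and the other 2 had an unadjusted p = 8.3e-04 and an adjusted p = 1. Over all genes, 0.0278% passed in LT and 0.0833% in MPP.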

How the data were processed

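The deposited table holds expected counts for 23366 gene symbols, made by the authors with RSEM (version not given in the sources used here) on genome build mm9, per the submitters' processing notes; 89.5% of its values were whole. They were rounded to whole counts, and repeats of one sample were summed (repeats of ST correlated at r = 0.76 to 0.91 on log2(CPM + 1)). The 72 summed libraries of LT, ST and MPP entered 1 edgeR 4.0.16 quasi-likelihood fit in R 4.3.3 (TMM factors, edgeR's default expression filter, a mean per cell type, course and time, no block), with Benjamini-Hochberg adjustment over 14401 genes. The SE is the log2 difference over the square root of F. DESeq2 1.42.0, limma 3.58.1 (voom with quality weights), DESeq2's size factors, no filter and a stricter one (5 CPM in 4 libraries), ST alone, levels at the same time, 1 repeat per sample, young mice only, libraries of at least 8000 genes and leaving out each mouse were alternatives. Thinning to 1600000 counts was chosen after seeing the data.

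The mice pair the times, since the labels give 1 animal per number and age, but the unblocked fit does not use this pairing. Deviations of same-mouse ST libraries from their group means correlated at a mean r of 0.19 (young 1), 0.068 (young 2), 0.487 (young 3) and 0.064 (old 2), against -0.078, -0.023, -0.146 and -0.019 with the other ligand mice. On simulated data of 13930 genes edgeR made 0 false calls, while DESeq2 made 60 to 77 and voom 1 to 23. The simulation took its means and dispersions from the edgeR fit and held no mouse effect, so it cannot rank the methods on these data. Genes named were drawn from 160 genes. These were the genes past the threshold with the largest differences, the 4 of each list with the smallest p over the mean, and a fixed set. Only part of the 160 is given, and no stated rule fixed which. Other genes, apart from cell type markers, are said to be chosen after their values were seen. The members and lists were chosen with earlier results of these data known. Promoters are the 250 bases before the start of the first RefSeq entry per symbol. Libraries of other times and mice were not used here.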

Additional observations from a re-analysis of the deposited data

Results flagged for a closer look

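For Nfkbiz the mean own change over 2, 4 and 8 h, on log2(CPM + 1), was 5.66, 5.41 and 5.02 log2 units higher in young 1, young 2 and young 3 than in young 4, while that of old 2 was 0.183 lower than that of old 4 (-0.183). These differences have opposite signs, with 1 old mouse per course, and the difference between the ages was not tested. Old 4 had no Nfkbiz count at 0 h, so its own change rests on the pseudocount of 1 CPM and is not a measured fold.

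Cxcl2 in young 3 lay apart from the other ligand mice, with a mean own change of 4.03 against 7.86, 8.09 and 8.37. The gap was 0.884 of the whole range, above Dixon's 95% value for 4 samples, which chance passes in about 1 in 20 groups. It was the only such gap among 42 genes screened, where chance alone would give about 2. Young 3 was also the mouse with few neutrophil granule and monocyte transcripts, whose part was not tested.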

How the results depend on the processing

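Depth limits what the 2 mice without ligand can show: their libraries held fewer counts than most ligand libraries, and a gene at 0 counts there has only a lower bound. Counts of genes passing are given here for 2 h, 4 h, 8 h and the mean of the times, in that order, against 2, 1, 13 and 7. DESeq2 gave 125, 189, 322 and 164, and limma voom 53, 51, 123 and 123. Both made false calls on simulated data, but those were drawn from the edgeR fit without mouse effects and cannot rank the methods here. At 0 h they gave 123 and 317 genes, and between the cell types 64 and 2, against 0 and 0. Levels at the same time, with no subtraction of 0 h, gave 7, 13, 54 and 395, and 1 between the cell types. With the replicate block, in which each mouse has an offset shared by its LT, ST and MPP libraries, 3, 3, 50 and 24 passed. These held all 13 of the 8 h genes and all 7 of the mean. In ST alone with the block 3, 14, 62 and 29 passed, and 9 of the 13 and 6 of the 7 were among them, without Nfkbiz (8 h and mean), Mina, Pex14 and 2410006H16Rik. Unblocked, ST alone also lost Nfkbia at 2 and 4 h and Socs3 and Gbp3 at 8 h, and limma voom lost Nfkbiz, Cd69 and Ifitm2 (8 h and mean) and Ly6e at 8 h. The blocked fits could give no value at 0 h, since mice are nested in courses. ST alone gave 1 and 0 at 2 and 4 h. A single repeat per sample gave 1 and 0 there, thinning gave 2 at 4 h, and no filter gave 2 at 4 h and 18 over the mean. A stricter filter gave 20 at 8 h. Without the libraries under 8000 genes 5, 51 and 19 passed at 4 h, 8 h and over the mean, and with young mice only 0, 0, 3 and 3. Leaving out 1 mouse at a time gave 0 to 3 genes at 2 h, 0 to 5 at 4 h, 3 to 45 at 8 h, 2 to 16 over the mean and 0 to 2 at 0 h. The 8 h count was 45 without young 1, whose libraries held few genes, 3 without young 2 and 3 without old 2. Without young 4 and without old 4, 15 and 12 passed over the mean. The cause of these shifts was not tested, beyond the smaller number of samples. Of 67 single-gene results under 1273 alternatives, 1056 kept direction and side of the threshold, 125 no longer passed, 83 newly passed and 9 turned sign. Those were Nfkbiz at 8 h (-3.93) and over the mean (-4.67) without young 4, Cd14 at 2 h with 1 repeat (-0.38), without old 2 (-0.012) and without young 4 (-6.82), and Ccl3 at 2 h in young mice only (-0.15). As levels at the same time, Procr at 4 h (0.59), Ctla2a at 8 h (0.24) and Ikzf1 at 4 h (-0.33) also turned, which follows from their unequal 0 h levels.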
